A study of Mus musculus with 3 samples.

Results

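The genes followed here belong to the S100 and annexin families. The 10 members were S100b, S100a1, S100a6, S100a10, S100a11, S100a13, S100a16, Anxa2, Anxa5 and Anxa6, taken by their gene symbols from the 31053 genes of each count matrix, and each symbol matched 1 gene. The series holds 3 libraries of single cells, 1 per group, all labelled as C57BL/6 cortex of embryonic day 14.5. The neural stem cells were grown as neurospheres with EGF and FGF2, each at 20 ng/mL. The untreated astrocytes grew in astrocyte medium containing 10% serum. For the MIM-treated astrocytes this was replaced by MIM, which lacks serum and contains B27, N2, FGF2 at 20 ng/mL and added metabolites (methionine, threonine, glycine, putrescine, S-adenosylmethionine or cysteine in a combination that the labels do not name), and were collected by day 5. The protocol describes both postnatal cortical astrocytes and astrocytes differentiated from neurospheres, and the labels do not say which of these the libraries hold. All cells were fixed in methanol before loading.

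S100 proteins are small calcium-binding proteins that mostly form dimers and, on binding calcium, expose a surface that grips target proteins. Annexins bind negatively charged membrane lipids when calcium is present, and several of them carry an S100 dimer as a partner, the pair of S100A10 and annexin A2 being the best known. In brain, S100B is used as an astrocyte marker, while S100A10 is used as a marker of astrocytes after ischaemic injury.

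After removal of barcodes with fewer than 200 genes or more than 20% mitochondrial unique molecular identifiers (UMIs, each a counted RNA molecule), 9145 neural stem cells, 9818 untreated and 14964 MIM-treated astrocytes remained, with 14689259, 50594420 and 50906724 UMIs. Median depth was 1379, 5089 and 3156 UMIs per cell, and the noncoding RNA Malat1 took 26.9%, 13.7% and 9.44% of the UMIs. Pairs of libraries shared 25 to 43 barcodes. The astrocyte markers Gfap, Aqp4 and Aldoc stood at 271, 566 and 895 CPM (UMIs per 1000000 UMIs of the library) in the astrocytes, and at 4.05, 22.9 and 391 CPM in the MIM-treated astrocytes. The whole list of 12 astrocyte markers summed to 5844, 14922 and 18163 CPM in the neural stem cells, the untreated and the MIM-treated astrocytes, most of it from Apoe (4683, 12462 and 16996 CPM). Between the astrocyte libraries, 5 of the 12 had log2 ratios of -1 or below (MIM-treated against untreated) and 0 of 1 or above. Of all 13876 genes with at least 20 UMIs over both libraries, 15.2% and 8.49% did. The 5 were Gfap, Aqp4, Aldoc, Sox9 and Ntsr2. Slc1a3, Glul and Fgfr3, like Apoe, were higher in MIM-treated astrocytes, at 363, 155 and 12.1 CPM against 206, 104 and 6.09 in untreated ones. Microglia markers summed to at most 0.356 CPM and endothelial markers to at most 1.38 CPM in any library. Neuron markers summed to 31.5, 29.9 and 6.33 CPM in neural stem cells, untreated and MIM-treated astrocytes. Ependymal markers summed to 2.66, 61.6 and 12.6 CPM, almost all from Foxj1 and Rsph1, and Tmem212 had 0, 1 and 0 UMIs. The part of either cell type in the members' differences was not tested. Fibroblast and mural markers summed to 11.3 CPM in the neural stem cells, 295 in the astrocytes and 5.13 in the MIM-treated astrocytes, nearly all of it from the contractile genes Tagln and Acta2, and Col1a2 and Lum were at 0 in all 3 libraries. Oligodendrocyte lineage markers summed to 786, 140 and 629 CPM.

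With 1 library per group, no test between groups was possible. Intervals below are exact 95% intervals (Poisson for levels, conditional binomial for ratios of UMIs, Clopper-Pearson for shares and cells with both genes). They cover counting error only and leave out the spread between cultures. The counts come from the 3′ ends of RNAs and were not scaled by length, so the order of the libraries for a gene can be read, and the order of genes within a library cannot.

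The gene positions (GENCODE vM21, GRCm38) put the 6 S100a members on chromosome 3. S100a1 lies at chr3:90511034-90514392 on the minus strand, S100a13 at chr3:90514435-90524581, S100a16 at chr3:90537254-90543151 and S100a6 at chr3:90612882-90624181. S100a11 (chr3:93520488-93526287) and S100a10 (chr3:93555080-93564643) form a second group, 28.8 kb from each other and 2.82 Mb from S100a9, the last gene of the first group. S100b lies apart, at chr10:76253853-76261159, and its 3′ end shares 1731 bases with Dip2a on the other strand. The annexins are scattered, with Anxa5 at chr3:36448923-36475894 (minus), Anxa2 at chr9:69453620-69491795 and Anxa6 at chr11:54979108-55033445 (minus).

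RefSeq promoter windows of 300 bases (GRCm38.p6, 250 before to 50 after the start) were found for 8 of the 10 members, in 9 windows. Stretches of 4 of them are shown, because S100a1 and S100a13 face away from each other across a short gap, because S100a11 and Anxa2 share a motif and both were lower in MIM-treated than in untreated astrocytes, and because S100b went the other way. All are from the plus strand. The S100a13 stretch is chr3:90514393-90514434, in capitals throughout, and is the whole gap between the GENCODE starts of S100a1 and S100a13, which lie 43 bases apart (105 by RefSeq). In S100a11 (chr3:93520246-93520487) and Anxa2 (chr9:69453433-69453619) capitals mark TGANTCA, the motif of AP-1, a factor of Fos and Jun proteins. In S100b (chr10:76253586-76253835) they mark CCAAT on either strand.
S100a13: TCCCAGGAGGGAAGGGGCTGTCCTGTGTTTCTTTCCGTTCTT
S100a11: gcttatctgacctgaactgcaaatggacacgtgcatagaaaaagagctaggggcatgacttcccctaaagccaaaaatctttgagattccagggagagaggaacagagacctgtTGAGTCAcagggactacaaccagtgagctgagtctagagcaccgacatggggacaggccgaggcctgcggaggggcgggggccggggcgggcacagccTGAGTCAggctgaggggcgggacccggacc
Anxa2: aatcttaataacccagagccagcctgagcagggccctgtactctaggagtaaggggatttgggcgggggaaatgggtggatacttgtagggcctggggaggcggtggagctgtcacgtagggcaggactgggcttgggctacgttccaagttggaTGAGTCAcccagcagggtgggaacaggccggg
S100b: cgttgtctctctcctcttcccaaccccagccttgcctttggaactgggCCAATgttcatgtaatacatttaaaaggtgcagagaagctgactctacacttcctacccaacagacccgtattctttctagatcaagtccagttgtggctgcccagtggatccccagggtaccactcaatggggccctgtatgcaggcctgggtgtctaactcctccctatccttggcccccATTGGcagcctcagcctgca

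Searched on both strands, TGANTCA stood 136 and 38 bases before the RefSeq start of S100a11, 95 bases before that of Anxa2, and 192 bases before one of the 2 starts of S100a16. It was in 7.81% of all 32851 mouse windows of this length, and 2 or more copies were in 0.46%. The windows of S100b, S100a1, S100a13, S100a6 and Anxa5 did not hold these letters. Of these, S100a6 and Anxa5 were also lower in MIM-treated than in untreated astrocytes, at log2 ratios of -3.04 and -2.09. S100a16, with a match, had a log2 ratio of -0.71 in the same comparison. S100a11 and Anxa2, also with matches, had log2 ratios of -1.64 and -2.27. S100b, S100a1 and S100a13, without a match, had ratios of 2.79, 0.46 and 0.29. Whether the letters went with the direction of the members' differences was not tested. CCAAT, in 37.4% of all windows and with 2 or more copies in 11.7%, stood 202 and 20 bases before the S100b start and 228 bases before the S100a6 start. The TATA box (TATAAA) and the Sp1 box (GGGCGG) were searched too, and were in 13.6% and 35.7% of all windows. Among the members, TATAAA was found in Anxa2 only. GGGCGG was found 3 times in S100a11, 3 times in Anxa2 and 1 time in 1 window of S100a16. The windows held 3 CG dinucleotides in S100b, 2 and 4 in S100a16, 6 in S100a6, 11 in S100a1, 13 in Anxa2, 14 in S100a13, 15 in S100a11 and 16 in Anxa5, with a median of 7 over all windows. These are matches of letters and say nothing about what binds there.

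In MIM-treated against untreated astrocytes, S100b was higher while S100a6, S100a10, S100a11, Anxa2 and Anxa5 were lower. A gene was counted as higher or lower when it had at least 50 CPM in either library and a log2 ratio (with 1 CPM added to each level) of at least 1 in size. Of the 10 members, 7 reached 50 CPM. Among these, 1 was higher and 5 were lower, where 14.7% and 17.5% of the 2895 genes at that level were. The median log2 ratio of all 10 members was -1.42, beside -0.07 for those 2895 genes. The members' median takes in genes under 50 CPM, so the sets are unlike. S100a16 reached the level but not the ratio, and S100a1, S100a13 and Anxa6 were under 50 CPM in both libraries.

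In astrocytes against neural stem cells, 6 members reached 50 CPM, of which 5 were higher (S100a6, S100a11, S100a16, Anxa2 and Anxa5) and 0 lower, where 31.2% and 22.9% of 3192 genes were. The median log2 ratio of all 10 members, with those under 50 CPM included, was 2.63, beside 0.38 for those genes. In MIM-treated astrocytes against neural stem cells, 4 members reached 50 CPM, and all 4 (S100b, S100a11, S100a16 and Anxa5) were higher, where 20.3% of 2830 genes were higher and 16.2% lower. The call of S100a11 in the last comparison rests on a log2 ratio of 1.02, which was 0.72 with Malat1 left out of the totals. The 3 comparisons share libraries, so they are not independent of each other.

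**Figure D1:**
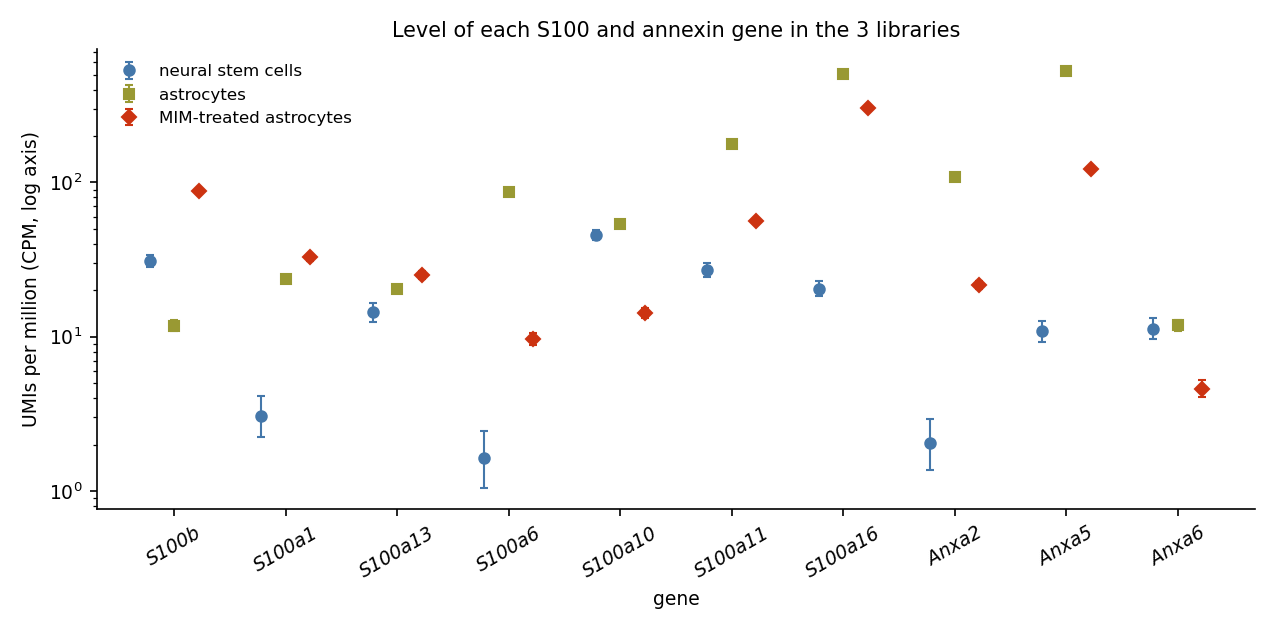
Level of the 10 genes (CPM, log axis) in the 3 libraries, with exact 95% Poisson intervals where these are wider than the symbol. S100b is highest in the MIM-treated astrocytes at 87.8 CPM, whereas S100a6, S100a11, S100a16, Anxa2 and Anxa5 are highest in the untreated astrocytes.

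S100b, the astrocyte marker of the family, was counted at 31.0 CPM (28.3 to 34.0) in the neural stem cells, 11.8 (10.9 to 12.8) in the astrocytes and 87.8 (85.3 to 90.4) in the MIM-treated astrocytes. The untreated astrocytes, the library with the highest Gfap, thus had the lowest S100b of the 3. The MIM-treated astrocytes were 7.43 times (6.82 to 8.11) above the untreated astrocytes and 2.83 times (2.57 to 3.12) above the neural stem cells. Its overlapping neighbour Dip2a stood at 7.62, 2.51 and 3.03 CPM, so its order of libraries was not that of S100b. The sources used here do not state that strand was used in counting, and reads from the shared bases could then belong to either gene.

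To compare cells at equal depth, each cell was thinned at random to 1000 UMIs. This left 7688, 9467 and 13991 cells and dropped 1457, 351 and 973 shallower ones. At this depth S100b was found in 2.87% (2.51 to 3.27), 1.11% (0.908 to 1.34) and 8.24% (7.79 to 8.71) of neural stem cells, untreated astrocytes and MIM-treated astrocytes. Before thinning the shares were 4.41%, 5.49% and 21.7%, with the astrocytes above the neural stem cells, an order that follows depth and goes against the CPM. No cell type known to lack these genes was set apart in the cultures, so the share that free RNA alone would give was not measured for any member.

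S100a1 and S100a13 are the neighbours whose starts lie 43 bases apart. S100a1, best known from heart muscle, stood at 3.06 CPM (2.23 to 4.10) in the neural stem cells, 23.5 (22.2 to 24.9) in the astrocytes and 32.7 (31.2 to 34.3) in the MIM-treated astrocytes. S100a13, which takes part in the release of FGF1, stood at 14.4 (12.5 to 16.4), 20.4 (19.2 to 21.7) and 25.1 CPM (23.8 to 26.5). Both had the same order of libraries and were, with S100b, the members that stood highest in the MIM-treated astrocytes. They did not scale together, since the ratio of S100a1 to S100a13 UMIs was 0.213 (0.151 to 0.295) in the neural stem cells and 1.15 (1.06 to 1.25) and 1.30 (1.21 to 1.40) in the astrocyte libraries. The untreated and MIM-treated ratios had overlapping intervals.

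S100a6, or calcyclin, stood at 1.63 CPM (1.05 to 2.43) in the neural stem cells, 86.6 (84.1 to 89.2) in the astrocytes and 9.66 (8.83 to 10.6) in the MIM-treated astrocytes. It was 53.0 times (35.6 to 82.8) higher in the astrocytes than in the neural stem cells, where only 24 UMIs were counted, and 8.96 times (8.16 to 9.86) higher than in the MIM-treated astrocytes. At 1000 UMIs it was found in 0.104%, 6.60% and 0.843% of cells. Its UMIs were unevenly spread over the untreated astrocytes, where an even spread would have put a UMI in 8.36% of cells. In that library 130 of the 625 cells with S100a6 held 2 or more of its UMIs, and 1 held 8. The ratio of the observed share to the even one was 0.789 for S100a6 and between 0.922 and 0.983 for the other members in the same library.

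S100a11 stood at 27.2 CPM (24.6 to 30.0) in the neural stem cells, 178 (174 to 181) in the astrocytes and 56.1 (54.1 to 58.2) in the MIM-treated astrocytes. It is known as the partner of annexin A1. At 1000 UMIs it was found in 2.58%, 14.4% and 4.88% of cells. A processed pseudogene of S100a11 lies on another chromosome, and reads shared with it could have been lost or split, so its level is uncertain.

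S100a16, a member found in most tissues, stood at 20.5 CPM (18.2 to 22.9), 501 (495 to 508) and 305 (301 to 310) in the neural stem cells, the untreated and the MIM-treated astrocytes, and was found in 2.04%, 37.7% and 23.9% of cells at 1000 UMIs. Untreated astrocytes were 24.5 times (21.8 to 27.5) above the neural stem cells but only 1.64 times (1.61 to 1.68) above the MIM-treated astrocytes. Of the 6 members that were highest in the astrocytes and reached 50 CPM there, S100a16 had the smallest ratio between the astrocyte libraries.

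S100a10 and Anxa2 encode the chains of 1 complex that links membranes to the actin skeleton, and their RNAs were not kept in proportion. S100a10 stood at 46.0 CPM (42.6 to 49.6) in the neural stem cells, 53.5 (51.5 to 55.5) in the astrocytes and 14.2 (13.2 to 15.3) in the MIM-treated astrocytes. Anxa2 stood at 2.04 (1.38 to 2.92), 108 (105 to 111) and 21.6 CPM (20.3 to 22.9). The ratio of S100a10 to Anxa2 UMIs was therefore 22.5 (15.6 to 33.6) in the neural stem cells, 0.495 (0.472 to 0.518) in the astrocytes and 0.657 (0.598 to 0.723) in the MIM-treated astrocytes. These ratios compare libraries and are not ratios of transcripts, and they do not depend on how the libraries were scaled.

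The difference in S100a10 between astrocytes and neural stem cells was small and its direction was not stable. The log2 ratio was 0.21, and it was -0.02 with Malat1 left out of the totals. MIM-treated astrocytes were 3.76 times (3.47 to 4.09) below the astrocytes and 3.24 times (2.91 to 3.60) below the neural stem cells. For Anxa2 the MIM-treated astrocytes were 5.00 times (4.69 to 5.34) below the astrocytes and 10.6 times (7.37 to 15.8) above the neural stem cells. At 1000 UMIs, S100a10 was found in 4.36%, 5.04% and 1.52% of cells and Anxa2 in 0.195%, 9.95% and 2.02%.

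Anxa5, which binds phosphatidylserine and is widely used to stain dying cells, stood at 10.8 CPM (9.21 to 12.6), 528 (522 to 535) and 123 (120 to 126) in the neural stem cells, the untreated and the MIM-treated astrocytes. It was found in 1.01%, 40.4% and 10.4% of cells at 1000 UMIs. The astrocytes were 48.8 times (41.8 to 57.4) above the neural stem cells and 4.30 times (4.18 to 4.42) above the MIM-treated astrocytes. Anxa6, a longer annexin found at endosomes and the plasma membrane, was low throughout, at 11.3 CPM (9.65 to 13.2), 11.9 (10.9 to 12.9) and 4.62 (4.04 to 5.25). Its neural stem cell and astrocyte intervals overlapped, and the MIM-treated astrocytes were 2.57 times (2.21 to 3.00) below the astrocytes.

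**Figure D2:**
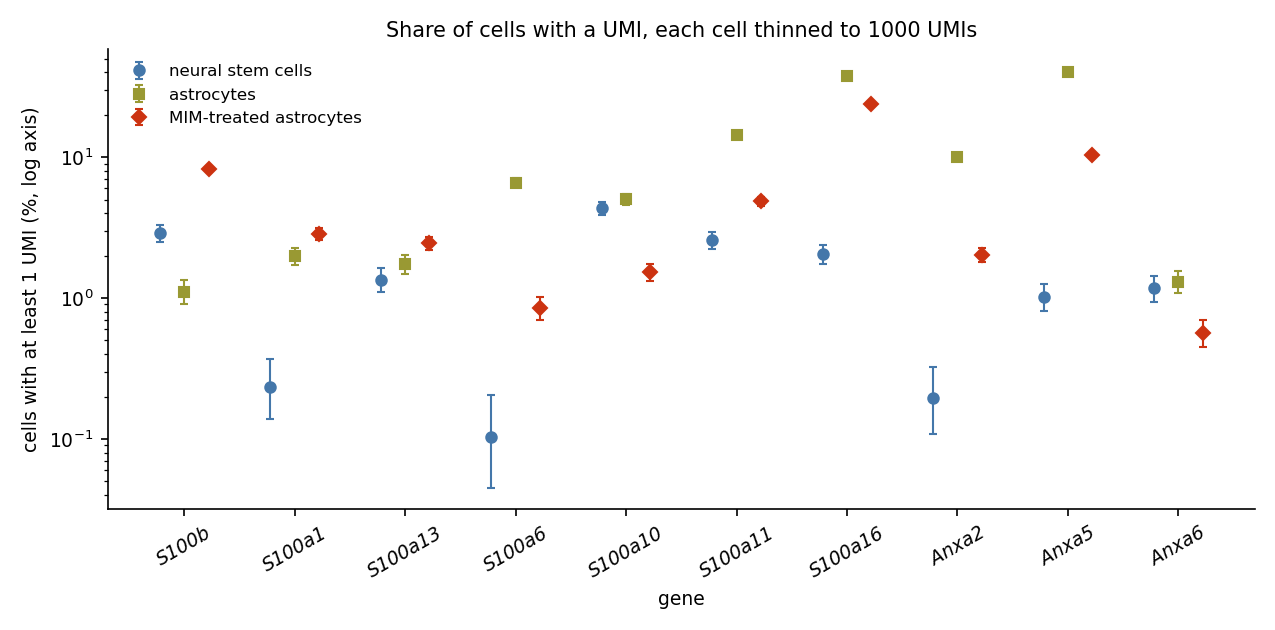
Share of cells with at least 1 UMI of each gene (%, log axis) after each cell was thinned to 1000 UMIs, with exact 95% binomial intervals. S100a16 and Anxa5 reach 37.7% and 40.4% of the untreated astrocytes, and S100b reaches 8.24% of the MIM-treated astrocytes against 1.11% of the untreated ones.

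The members were rarely seen together in the neural stem cells. At 1000 UMIs, 85.4% of neural stem cells, 25.0% of astrocytes and 55.3% of MIM-treated astrocytes held no UMI of any member, and 3, 877 and 218 cells held 3 or more different members. For each of the 45 pairs, the number of cells with both genes was divided by the number that the separate shares would give. A ratio was kept where at least 20 cells were expected, which held for 0 pairs in the neural stem cells, 25 in the astrocytes and 18 in the MIM-treated astrocytes. Its 95% interval is that of the cells with both genes, with the expected number taken as fixed, so it is approximate for the ratio. The interval lay above 1 for 3 pairs in the astrocytes and 6 in the MIM-treated astrocytes, and below 1 for 0 pairs in either. Some intervals among 43 leave out 1 by counting error alone.

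For the 25 pairs kept in the untreated astrocytes, the median ratio was 1.05, where independent genes would give 1. S100a10 and Anxa2, the partners, were found together in 50 cells where 47.5 were expected, a ratio of 1.05 (0.782 to 1.39). S100a16 and Anxa5 met in 1484 cells where 1444 were expected (1.03, 0.980 to 1.08). S100a6 and Anxa2 (1.30, 1.04 to 1.62), S100a10 and S100a11 (1.30, 1.04 to 1.60) and Anxa2 and Anxa5 (1.11, 1.01 to 1.22) lay above 1. With cells thinned to 500 UMIs the ratios of Anxa2 with S100a6 and with Anxa5 were 0.94 and 0.90.

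In the MIM-treated astrocytes the median ratio was 1.16. Anxa2 and Anxa5 were found together in 47 cells where 29.5 were expected, a ratio of 1.59 (1.17 to 2.12). S100a16 met Anxa5 in 450 cells where 347.8 were expected (1.29, 1.18 to 1.42), Anxa2 in 90 where 67.6 were expected (1.33, 1.07 to 1.64) and S100a1 in 123 where 94.5 were expected (1.30, 1.08 to 1.55). S100b and S100a13 had a ratio of 1.52 (1.10 to 2.05), which was 0.97 at 2000 UMIs per cell, and S100a6 and S100a16 one of 1.53 (1.11 to 2.06), which was 1.09. S100b and Anxa5, the members with opposite differences between the astrocyte libraries, met in 103 cells where 120 were expected (0.858, 0.701 to 1.04). Whether the ratios differ between the libraries was not tested.

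**Figure D3:**
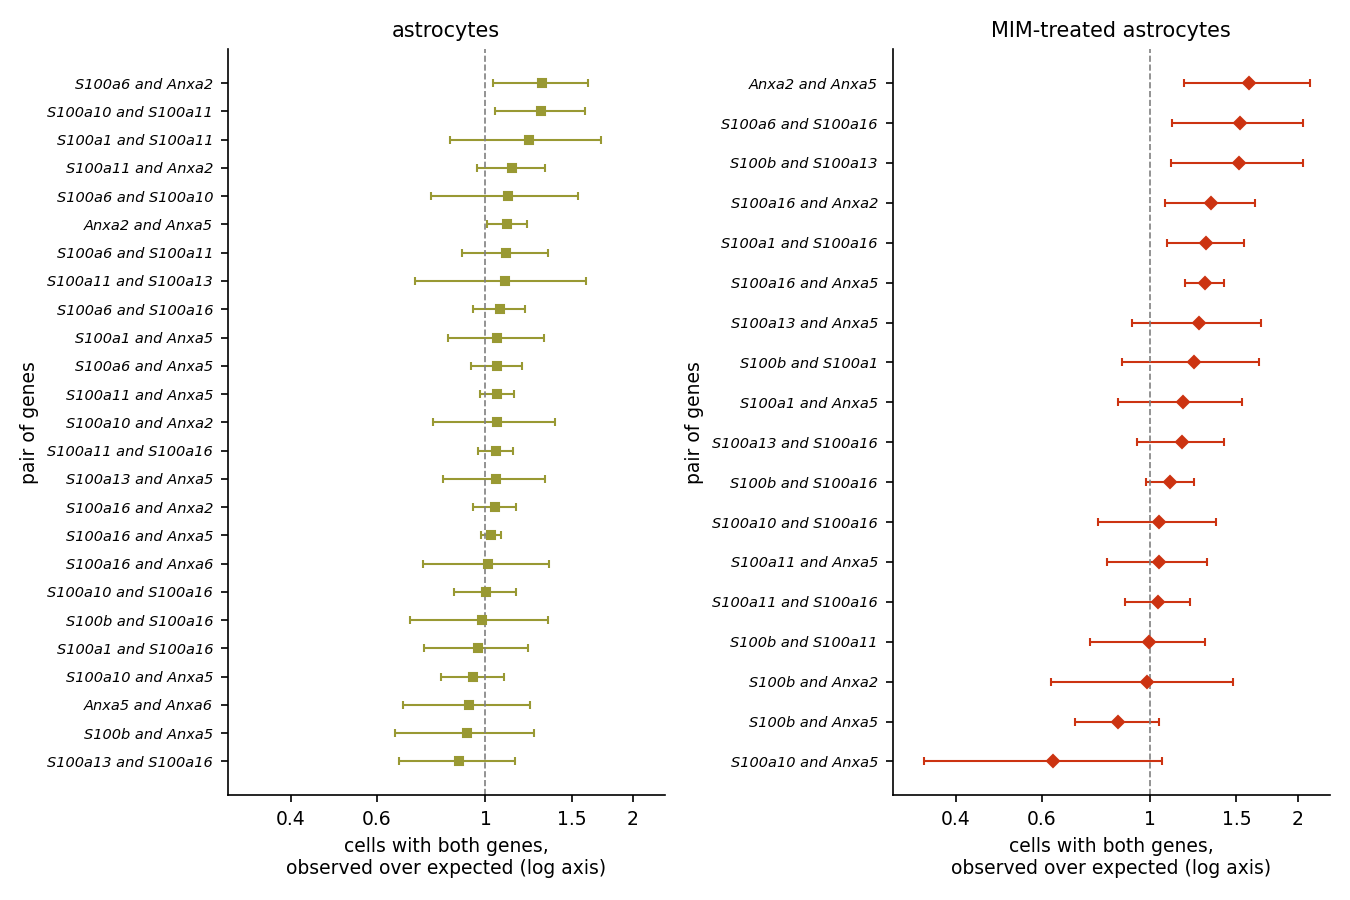
Cells with both genes of a pair, observed over expected from the separate shares (log axis), for pairs with at least 20 expected cells. Bars are exact 95% intervals of the observed number, with the expected number taken as fixed. The dashed line marks 1. No interval lies wholly below it, and 3 in the astrocytes and 6 in the MIM-treated astrocytes lie wholly above it.

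Within the MIM-treated astrocytes, S100b was lower in cells with more RNA of division genes, and S100a10 was higher. Cells were split by the UMIs of 86 genes of the S, G2 and M phases after thinning. S100b stood at 120 CPM (113 to 127) in the 2644 cells with 0 of these UMIs, 114 (109 to 119) in the 5415 with 1 to 2, 74.4 (69.1 to 79.9) in the 2945 with 3 to 9 and 40.0 (36.6 to 43.5) in the 2987 with 10 or more. The first class was 3.00 times (2.70 to 3.34) above the last. The classes had median depths of 3349, 3050, 2964 and 4459 UMIs, and at equal depth S100b was found in 11.5% of the first and 3.82% of the last. The part that depth played was not tested further.

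S100a1 was 1.96 times (1.68 to 2.28), S100a6 1.88 times (1.40 to 2.52), S100a13 1.67 times (1.40 to 1.98), S100a16 1.63 times (1.55 to 1.71), Anxa5 1.33 times (1.23 to 1.43) and Anxa2 1.21 times (1.01 to 1.45) higher in the first class than in the last. S100a10 went the other way, from 8.81 CPM (6.99 to 10.9) to 20.5 (18.1 to 23.0), a ratio of 2.32 (1.81 to 3.02). The intervals for S100a11 (0.879 to 1.11) and Anxa6 (0.607 to 1.5) included 1.

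The neural stem cells had fewer UMIs to split. S100b stood at 34.5 CPM in the 2249 cells with 0 division UMIs and at 10.4 (10 UMIs) in the 392 with 10 or more, a ratio of 3.33 (1.75 to 7.10). It stood at 35.0 CPM (27.5 to 44.0) in the cells between, with 3 to 9. S100a10 was at 37.2 CPM (31.3 to 43.8) in the first class and 60.4 (50.4 to 72.0) in the class with 3 to 9, and 50.8 (37.6 to 67.2) in the last. In the astrocytes 761 cells had 3 to 9 division UMIs and 0 had 10 or more. Their S100b was at 9.47 CPM (6.66 to 13), against 12.3 (10.8 to 14) in the cells with 0. Among cells with 0 division UMIs, the log2 ratio of S100b in MIM-treated against untreated astrocytes was 3.19, beside 2.79 over all cells. Cells with 0 division UMIs made up 37.4% of the thinned untreated and 18.9% of the thinned MIM-treated astrocytes. The part of division in the difference was not tested.

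**Figure D4:**
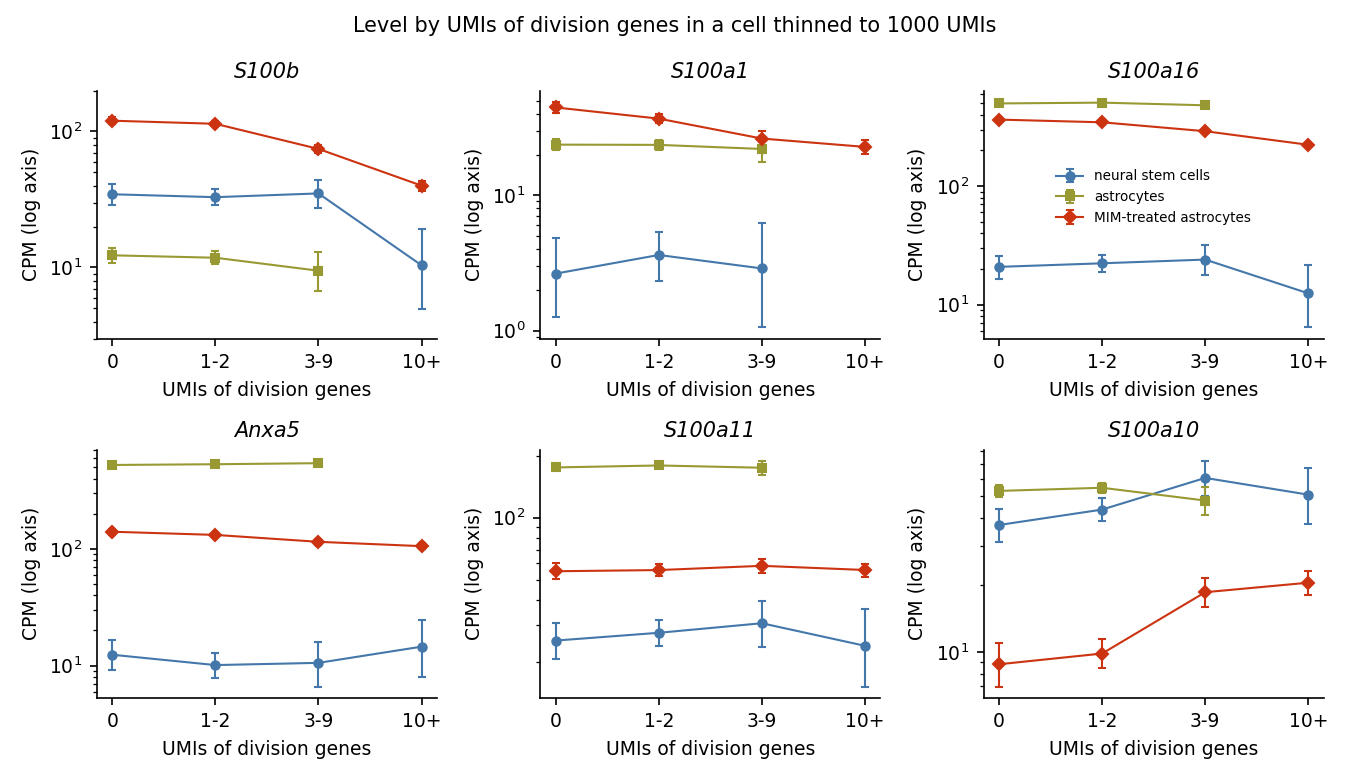
Level (CPM, log axis) of 6 members by the number of division-gene UMIs in a cell thinned to 1000 UMIs, per library, with exact 95% Poisson intervals. S100b goes from 120 down to 40.0 CPM and S100a10 from 8.81 up to 20.5 CPM across the classes of MIM-treated astrocytes. S100a1 had 0 UMIs in the last class of neural stem cells and is not drawn there.

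S100b is also made by oligodendrocyte precursors, so cells were split by how many of 10 oligodendrocyte lineage markers they held. In the MIM-treated astrocytes the 736 cells with 2 or more markers had a ratio of 1.02 (0.863 to 1.20) for S100b against the 7665 cells with 0. In the same split S100a16 had a ratio of 0.601 (0.539 to 0.667) and Anxa5 one of 0.513 (0.426 to 0.612). The cells with 2 or more markers were shallower, at a median of 2125 against 3778 UMIs. In the neural stem cells the ratio for S100b was 1.52 (1.10 to 2.06), from 682 and 4331 cells.

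The high Tagln of the untreated astrocytes was set beside the members, a split chosen after the levels were seen. Tagln encodes transgelin, an actin-binding protein of contractile cells. S100a6 was 1.40 times (1.29 to 1.51), S100a11 1.37 times (1.30 to 1.45), S100a10 1.29 times (1.16 to 1.43) and Anxa2 1.26 times (1.18 to 1.36) higher in the 1175 cells with a Tagln UMI than in the 8292 without. S100a16 had a ratio of 1.13 (1.10 to 1.17) and Anxa5 one of 1.05 (1.01 to 1.08). The intervals of S100b (0.727 to 1.20), S100a1 (0.955 to 1.33), S100a13 (0.816 to 1.18) and Anxa6 (0.822 to 1.32) included 1. Split by Gfap instead, the 1715 cells with and the 7752 without a Gfap UMI had ratios from 0.874 to 1.13 over all 10 members. The part of the contractile genes in the differences between libraries was not tested.

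Over single cells, no gene followed S100b, S100a6 or Anxa2 closely, and the other members were not examined in this way. Among genes found in at least 10% of cells, leaving out ribosomal protein and mitochondrial genes, the highest Pearson r with S100b in the 13991 thinned MIM-treated astrocytes was 0.09, with Dbi and Apoe. Dbi also ranked first for S100b in the neural stem cells (0.06), and Serpine2 in the astrocytes (0.05). The first genes for Anxa2 were Prdx4, Tubb2a and Mt3 in the 3 libraries, and for S100a6 Hnrnpr, Reep5 and Fth1, none with r above 0.06. Counts this sparse hold r near 0, and all cells of a library share its preparation.

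The remaining genes of both families were under 10 CPM in each library, apart from Anxa3 and Anxa7. The 10 other S100 genes summed to 0.408 CPM in the neural stem cells, 8.12 in the astrocytes and 1.69 in the MIM-treated astrocytes. S100a4 stood at 0.340, 4.51 and 1.32 CPM. S100a5, S100a9 and S100z had 0 UMIs in all libraries, which, by a limit of 3 counts per library, allows levels up to 0.204, 0.0593 and 0.0589 CPM. S100g, or calbindin D9k, had 84 UMIs in the astrocytes and 0 in the other libraries. Of the 8 other annexins in the files, Anxa3 alone reached 50 CPM, at 0.0681, 71.3 and 2.14 CPM. It was 33.3 times lower in MIM-treated than in untreated astrocytes (log2 ratio -4.52). Anxa7 stood at 2.11, 36.1 and 9.02 CPM. Anxa4 (0.681, 8.95 and 1.65 CPM), Anxa11 (0.136, 8.36 and 0.432) and Anxa1 (0, 4.23 and 0.275) were highest in the untreated astrocytes too. Of the 6 other annexins with at least 20 UMIs over both astrocyte libraries, 5 had log2 ratios of -1 or below and 0 of 1 or above, where 15.2% and 8.49% of all 13876 genes with that many UMIs did.

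**Figure D5:**
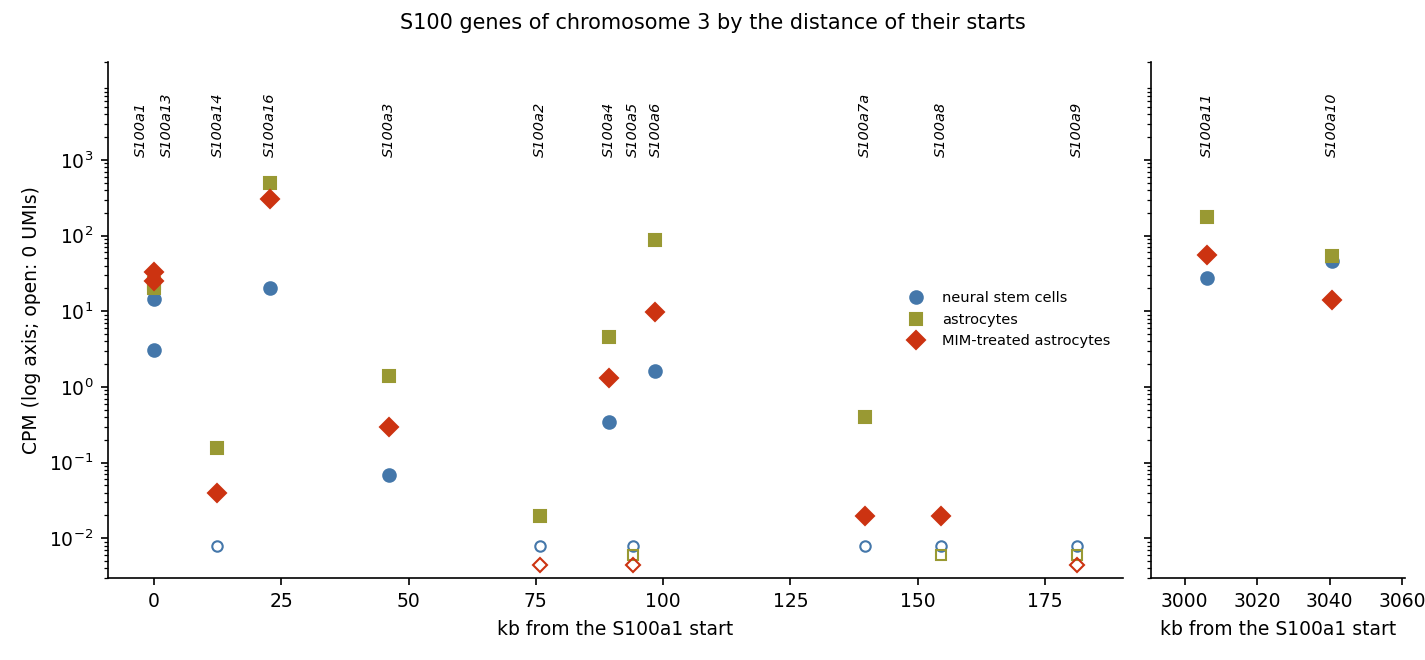
Level (CPM, log axis) of the 14 S100 genes of chromosome 3 by the distance of their starts from that of S100a1 (kb), in 2 panels because the S100a11 and S100a10 group lies about 3 Mb away. Open symbols mark 0 UMIs. S100a14 had 0, 8 and 2 UMIs in the neural stem cells, the untreated and the MIM-treated astrocytes, and S100a5 and S100a9 had 0 UMIs in all 3.

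Known binding partners of the members were taken from a list of 21 genes, of which 7 reached 50 CPM in either astrocyte library. Of these, 1 was higher and 2 were lower in the MIM-treated astrocytes, where 14.7% and 17.5% of all genes at that level were. Ahnak, the giant protein that docks on the S100A10 and annexin A2 complex, stood at 0.272, 59.3 and 0.570 CPM in the neural stem cells, the untreated and the MIM-treated astrocytes, so in the MIM-treated astrocytes it was 104 times below the untreated astrocytes. Myof, a membrane repair protein, stood at 0.545, 15.4 and 1.18 CPM. Fgf1, which S100A13 helps to leave cells, stood at 3.95, 30.1 and 7.21 CPM. Cacybp, the calcyclin-binding protein named for S100A6, stood at 153, 236 and 350 CPM. It was highest in the MIM-treated astrocytes, where S100a6 was below the untreated astrocytes. It was lowest in the neural stem cells, where S100a6 was lowest as well. Ager, the receptor for secreted S100B, was at 1.43, 1.40 and 0.0982 CPM, from 21, 71 and 5 UMIs.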

How the data were processed

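Cells of the 3 groups were profiled on the 10x Genomics platform. The authors aligned reads to the pre-built mm10 reference with Cell Ranger 3.0.2, per the labels' protocols, and deposited UMI counts per gene and cell; Seurat 3.1.1 is also named in the submitters' processing notes. The deposited counts are whole numbers and were used as they stand. Barcodes with at least 200 genes and at most 20% mitochondrial UMIs were kept. Doublets were kept and no caller was run. Counts were summed per library and divided by the library total (CPM). Ratios used a pseudocount of 1 CPM, and folds with intervals used none. Each group has 1 library, so nothing was tested. Cells were thinned without replacement to 1000 UMIs (seed 1). Division classes used 86 genes.

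The text names all 10 members, genes of the listed families, partners and markers, and genes among the 5 with the highest r over thinned cells for S100b, S100a6 and Anxa2. The members and lists were chosen with earlier results of these data known, and S100a2 and Capza2 were added to lists after the files were seen. Positions came from GENCODE vM21 by gene ID (28 of 28 listed family genes matched) and promoters from RefSeq (GRCm38.p6, the same assembly as mm10). Alternatives changed the cell filter, the scaling (TMM of edgeR 4.0.16, or totals without Malat1 or without mitochondrial and ribosomal protein genes), the pseudocount, the threshold, the thinning depth (500 or 2000), the 8% of cells with the most UMIs and the cells with division UMIs. Python 3.11.15, numpy 2.4.6, scipy 1.17.1 and pandas 2.3.3 were used. The ratio calls and the thinning were run on simulated data as a check of the code. The planted changes were larger than the cut, and the simulated counts held no spread between cultures. That check therefore says nothing about how far the calls would repeat in other cultures.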

Additional observations from a re-analysis of the deposited data

How the results depend on the processing

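The counts of members called higher or lower in MIM-treated against untreated astrocytes were 1 and 5 under 8 of the 9 alternatives, and 1 and 6 with a threshold of 10 CPM. In the other comparisons the number lower moved from 0. With a threshold of 10 CPM it was 1 (S100b) in astrocytes against neural stem cells and 2 (S100a10 and Anxa6) in MIM-treated astrocytes against neural stem cells. In the latter it was 1 (S100a10) with totals without Malat1 and 1 with totals without mitochondrial and ribosomal protein genes. The number higher there was 4, and between 3 and 6 under the alternatives. No called ratio changed sign under any alternative. The ratios of 2 uncalled members did, both in astrocytes against neural stem cells, S100a10 (-0.02 to 0.50 on the log2 scale) and Anxa6 (-0.16 to 0.22). TMM moved the median log2 ratio of genes at 50 CPM by 0.24 between the astrocyte libraries and by 0.40 between MIM-treated astrocytes and neural stem cells. Many of the 30 log2 ratios of members moved by more than counting error. These were 19 with TMM, 16 with totals without Malat1, 19 in cells with no division UMIs and 25 with a pseudocount of 10 CPM. Under each other alternative at most 6 did. The fold intervals given above therefore do not cover the choice of scaling. Of the co-occurrence ratios, 3 of 43 left their interval at 2000 UMIs per cell, 7 of 23 at 500 and 3 of 42 without the 8% of cells with the most UMIs. No paired analysis was possible because each group has 1 library. Depth limits the neural stem cells most, where 3 UMIs correspond to 0.204 CPM. A single library per group, of undefined astrocyte origin and MIM composition, gives no measure of the spread between cultures.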

Other observations

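S100a10 belongs to a list of 12 genes known to be induced in astrocytes after ischaemic injury (often called A2 genes). The list did not move as 1 block. Between the astrocyte libraries, 8 of the 12 had at least 20 UMIs, 5 of them, S100a10 included, had log2 ratios of -1 or below in MIM-treated against untreated astrocytes and 0 had ratios of 1 or above. Of all 13876 genes with that many UMIs, 15.2% and 8.49% did. Tm4sf1, a membrane protein of the tetraspanin-like family, stood at 0.0681, 92.1 and 2.38 CPM in the neural stem cells, the untreated and the MIM-treated astrocytes. B3gnt5, a glycolipid enzyme, was highest in the neural stem cells, at 15.7 CPM against 3.08 and 5.56. Emp1 (0.749, 0.850 and 0.471 CPM) and Ptx3 (0.0681, 0.316 and 0.0393) were near absent in all 3 libraries. The neural stem cells thus held S100a10 at 46.0 CPM with little RNA of most other genes of the list.

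The actin capping protein CapZ, which S100B binds, pairs an alpha with a beta chain, and its RNAs differed in direction between libraries. Capza1 stood at 123, 30.4 and 68.5 CPM in the neural stem cells, the untreated and the MIM-treated astrocytes, whereas Capzb stood at 113, 495 and 196 and Capza2, another alpha gene, at 149, 388 and 236. The ratio of Capza1 to Capzb UMIs was 1.09 (1.02 to 1.17), 0.0615 (0.0584 to 0.0648) and 0.350 (0.336 to 0.364). Capza2 was added to the list after these values were seen, and with 1 library per group the difference was not tested.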
